A study of Macaca mulatta with 17 samples.

Results

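The HOXB genes are the members of the HOX cluster that RefSeq (assembly T2T-MMU8v2.0) places on rhesus macaque chromosome 16. The array's descriptions named 10 of them, HOXB1 to HOXB9 and HOXB13, on 11 of its 20217 probes, among 16321 named genes in all. Each gene was represented by its probe with the highest mean signal. RNA came from the uteri of single female rhesus macaque fetuses, each hybridized to its own 1-color Agilent array. There were 17 arrays. The GD100 controls (n = 5) and GD100 BPA-exposed fetuses (n = 5) were delivered by cesarean section at gestation day (GD) 100 after their dams had received vehicle or 400 µg/kg bisphenol A (BPA) daily from GD50. The GD165 controls (n = 4) and GD165 BPA-exposed fetuses (n = 3) were delivered vaginally between GD165 and GD168, after the same treatments from GD100, and stillborn fetuses were not included. Age, mode of delivery and, with BPA, the period of dosing therefore cannot be told apart in these data. Strain and parentage of the animals are not given in the sources used here.

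HOX genes encode transcription factors that bind DNA through a homeodomain and give cells their position along the head-to-tail axis of the body. Within a cluster the genes lie in the order in which they are switched on in the embryo, from the anterior, retinoic acid-responsive HOXB1 to the posterior HOXB13, which is best known from the prostate and hindgut. In the female reproductive tract, posterior HOXA genes are the best studied members of the family, and they pattern the Müllerian duct along its length. HOXB genes are also active in blood-forming cells, HOXB4 being known for its action in hematopoietic stem cells.

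RefSeq placed the genes in the order HOXB1, HOXB2, HOXB3, HOXB4, HOXB5, HOXB6, HOXB7, HOXB8, HOXB9, HOXB13, and its models of HOXB3 and HOXB4 overlapped. The deposited files gave positions for only 7 of the 10 probes and put them on chromosome 17, while the file headers name the build rheMac2. Whether the positions are in that build could not be settled, so no coordinates are given. Human records described 9 of the 10 probes. No exact stretch longer than 10 bases was shared between a HOXB probe of 60 bases and the probe of any other HOX gene. The last 30 bases of 6 probes, as listed in the deposited files, are shown to identify what was measured for the 5 genes that rose with age and for HOXB7, which lies among them.
HOXB2: agggggactttcttaaaaataactagaggg
HOXB4: cagagtgacaatagaAATAAAtgtttggtt
HOXB5: gcctgtctcagtgattcgcttttggtattt
HOXB6: gtttgtagtcttgtcttagctcgggacgtg
HOXB7: tctatgtgtatctaaaggatggaaaaataa
HOXB8: ctgttgtctgcgcctgaaaagggcggaaga
Capitals mark AATAAA, the hexamer of polyadenylation signals. Of the HOXB probes 1 held it on the listed strand, against 12.8% of all probes, and 1 held its reverse complement, the share on either strand being 16.8% of all probes.

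Levels below are log2 signals after each array was scaled to a common 75th percentile, which lay at 12.62. Differences between groups are log2 differences of these levels, tested with limma on all 17 arrays, and p values were adjusted by the Benjamini-Hochberg method over all 20217 probes with a threshold of 0.01. Signals of different probes are not comparable as amounts of RNA, so genes are compared only by their differences. HOXB2 to HOXB9 and HOXB13 were well above background on 17 of 17 arrays, and no HOXB spot was saturated. The HOXB1 probe was well above background on 1 of 17 arrays, GD100 control replicate 2, at a level of 4.36, and no fold is given for it. HOXB6 had 2 probes of identical sequence, whose levels differed by at most 0.070 on any array. Of the markers of fetal uterus, HOXA11, EMX2, ESR1, ACTA2, MYH11 and PAX8 were well above background on 17 of 17 arrays, and the probe for PGR, the progesterone receptor, was so on 0 of 17.

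In controls, HOXB2, HOXB4, HOXB5, HOXB6 and HOXB8 were higher at GD165 than at GD100, by 1.52- to 2.04-fold, and no HOXB gene fell. The same direction held in BPA-exposed fetuses, where HOXB2, HOXB4, HOXB5 and HOXB6 passed the test. That comparison shares no animal with the first, but both take their spread from the same fit to all arrays and share slides. The genes that passed were not a continuous block, since HOXB3 and HOXB7 lie between them and did not pass in either comparison. HOXB3 pointed the same way by less, at 0.25 (95% interval 0.0078 to 0.49) in controls and 0.44 (0.17 to 0.70) in BPA-exposed fetuses. HOXB7 stood at 0.048 (−0.30 to 0.40) and −0.27 (−0.66 to 0.11). In controls 5 of the 9 measured genes rose against 6.32% of all probes, and in BPA-exposed fetuses 4 of 9 against 4.82%. The median difference of the 9 genes was 0.60 in controls and 0.66 in BPA-exposed fetuses, beside 0.0046 and −0.047 over all probes. In bulk tissue a larger share of cells expressing a gene and more RNA per cell cannot be told apart.

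**Figure D1:**
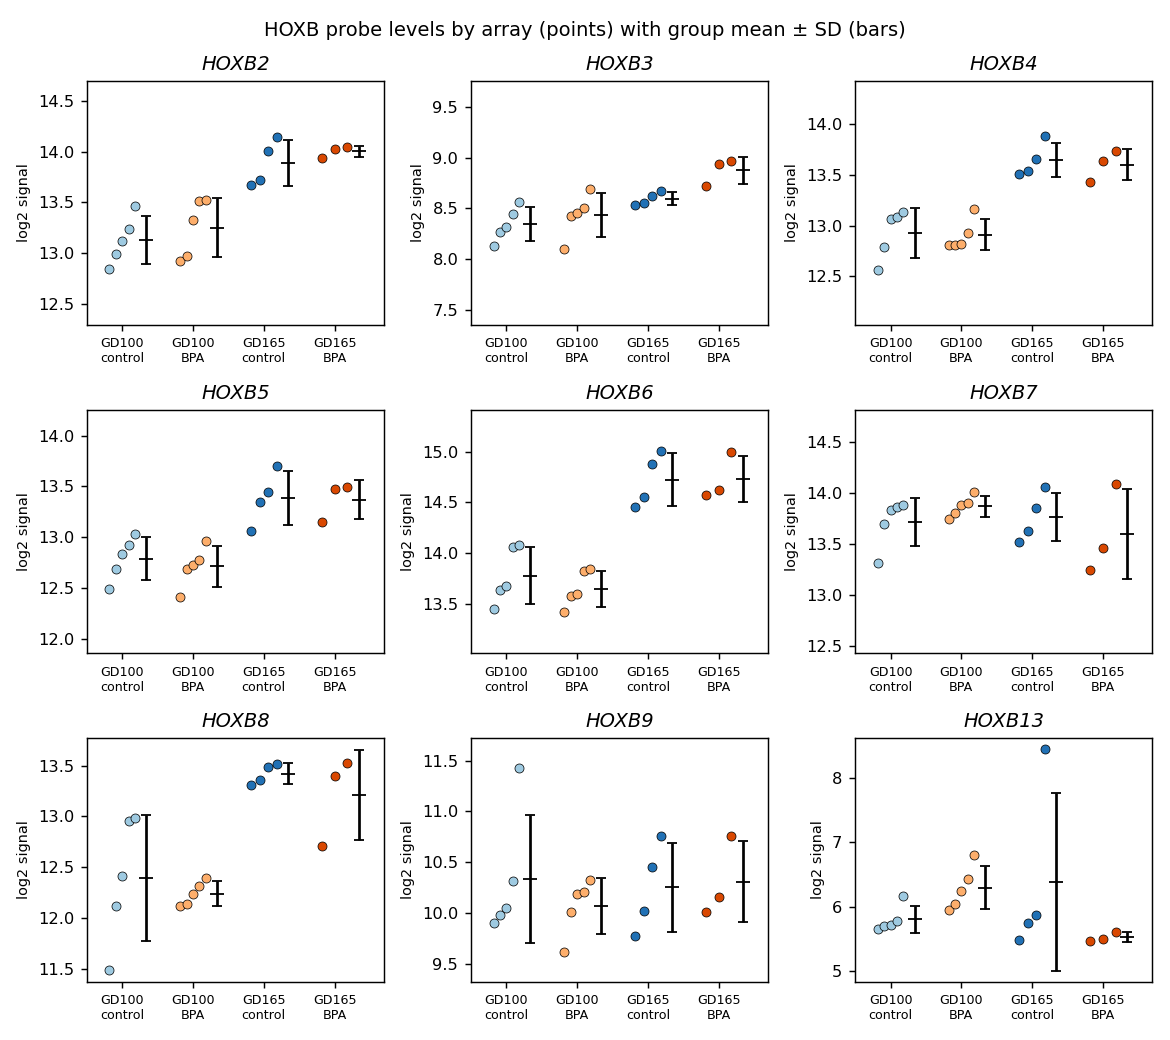
Level of each HOXB gene (log2 signal, vertical axis, a separate scale for each gene) on each of the 17 arrays (points, in order of value) in the 4 groups, with the group mean and SD as bars. HOXB6 lies between 14.46 and 15.01 on the 7 GD165 arrays and at or below 14.08 on the 10 GD100 arrays, whereas the HOXB7 groups overlap and GD165 control replicate 6 stands alone in HOXB13.

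HOXB6, a homeobox gene of the middle of the cluster, passed the test in every setting tried. Its levels were 13.64, 14.06, 13.68, 13.45 and 14.08 in the GD100 controls and 14.46, 14.55, 14.88 and 15.01 in the GD165 controls. In BPA-exposed fetuses they were 13.42, 13.58, 13.59, 13.82 and 13.84 at GD100 and 14.58, 14.62 and 15.00 at GD165. Each GD165 array was above each GD100 array. The difference was 0.94 ± 0.16 (SE; adjusted p = 0.000665, limma) in controls, or 1.92-fold, and 1.08 ± 0.17 (adjusted p = 0.000676, limma) in BPA-exposed fetuses, or 2.11-fold.

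HOXB4 stood at 13.08, 13.14, 12.79, 12.56 and 13.06 in the GD100 controls and at 13.51, 13.54, 13.66 and 13.88 in the GD165 controls. The BPA-exposed fetuses gave 12.81, 12.82, 12.81, 12.93 and 13.17 at GD100 and 13.64, 13.43 and 13.73 at GD165. The ages did not overlap in either series. Its rise was 0.72 ± 0.13 (adjusted p = 0.00106, limma), or 1.65-fold, in controls and 0.69 ± 0.14 (adjusted p = 0.00322, limma), or 1.62-fold, in BPA-exposed fetuses.

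HOXB2, known for its role in hindbrain patterning, was at 13.00, 13.47, 13.24, 12.85 and 13.12 in the GD100 controls and at 13.68, 13.72, 14.01 and 14.14 in the GD165 controls. The corresponding levels after BPA were 12.92, 13.33, 12.98, 13.52 and 13.51 at GD100 and 14.04, 13.94 and 14.02 at GD165. The 3 late BPA-exposed arrays lay within 0.10 of each other (SD 0.055) and above all early ones. HOXB2 rose by 0.75 ± 0.15 (adjusted p = 0.00283, limma) in controls, 1.69-fold, and by 0.75 ± 0.17 (adjusted p = 0.00606, limma) in BPA-exposed fetuses, 1.68-fold.

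HOXB5 had levels of 12.83, 13.03, 12.68, 12.49 and 12.92 in the GD100 controls and 13.07, 13.34, 13.44 and 13.71 in the GD165 controls. BPA-exposed fetuses had 12.96, 12.69, 12.77, 12.73 and 12.41 at GD100 and 13.15, 13.49 and 13.47 at GD165. The gap between the ages was narrow in controls, 13.03 against 13.07. The rise was 0.60 ± 0.15 (adjusted p = 0.00822, limma), 1.52-fold, in controls and 0.66 ± 0.16 (adjusted p = 0.00902, limma), 1.58-fold, in BPA-exposed fetuses.

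HOXB8 varied most among the early controls, which stood at 12.41, 12.95, 11.49, 12.12 and 12.99, while the GD165 controls were close together at 13.31, 13.36, 13.52 and 13.49. After BPA the early arrays were close together, at 12.23, 12.13, 12.32, 12.12 and 12.40, and the late arrays were at 12.71, 13.40 and 13.53. The ages again did not overlap. Its difference of 1.03 ± 0.25 (adjusted p = 0.0089, limma) in controls, 2.04-fold, passed the threshold, and that of 0.97 ± 0.27 (adjusted p = 0.0211, limma) in BPA-exposed fetuses, 1.96-fold, did not.

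HOXB3 differed by 0.25 ± 0.11 (adjusted p = 0.138, limma) between the ages in controls, in which the groups overlapped. The levels of the exposed fetuses were 8.10, 8.43, 8.46, 8.69 and 8.51 at GD100 and 8.96, 8.94 and 8.72 at GD165, a difference of 0.44 ± 0.12 (adjusted p = 0.0214, limma). When the age effects of control and BPA-exposed fetuses were averaged, a setting chosen after values were seen, HOXB3 differed by 0.34 (adjusted p = 0.00512, limma).

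HOXB7 stood at 13.70, 13.89, 13.86, 13.84 and 13.31 in the GD100 controls and at 13.52, 13.85, 13.63 and 14.06 in the GD165 controls. With BPA it stood at 14.01, 13.91, 13.80, 13.88 and 13.75 at GD100 and at 13.25, 13.46 and 14.09 at GD165. The ages overlapped in both series, the values of the late exposed fetuses lying both above and below the early ones. The differences were 0.048 (95% interval −0.30 to 0.40) and −0.27 (−0.66 to 0.11), with adjusted p = 0.883 and 0.301 in limma's test.

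HOXB9, a posterior gene next to HOXB8 in the cluster, differed by −0.086 (95% interval −0.71 to 0.54; adjusted p = 0.883, limma) in controls and by 0.24 (−0.44 to 0.92; adjusted p = 0.644, limma) in BPA-exposed fetuses. GD100 control replicate 2 was at 11.43, while the other early controls lay between 9.90 and 10.32. That array was also the one on which the HOXB1 probe was well above background.

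HOXB13 had low signals, 47.5 to 360.1 before scaling. Its levels were 5.78, 6.17, 5.66, 5.70 and 5.72 in the GD100 controls and 5.74, 5.88, 5.49 and 8.45 in the GD165 controls, the last value being that of replicate 6. In BPA-exposed fetuses the levels of 6.80, 6.43, 5.95, 6.24 and 6.05 at GD100 were all above those of 5.47, 5.50 and 5.61 at GD165. The age difference was 0.59 (95% interval −0.35 to 1.52; adjusted p = 0.392, limma) in controls and −0.77 (−1.79 to 0.25; adjusted p = 0.274, limma) in BPA-exposed fetuses.

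The HOXB13 tests were repeated without GD165 control replicate 6. The difference was then −0.10 (adjusted p = 0.768, limma) in controls, where HOXB13 passed neither with nor without this animal, and the same −0.77 in BPA-exposed fetuses passed the threshold (adjusted p = 0.00646, limma), because the fit takes 1 spread from all groups. With slide as a block the latter difference was −0.19 (adjusted p = 0.869, limma). The summed signal of the 5 measured squamous epithelium markers was 16.67 on the log2 scale on the array of replicate 6 and 13.33 to 14.88 on the other 16 arrays, and its part in the HOXB13 level was not tested.

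**Figure D2:**
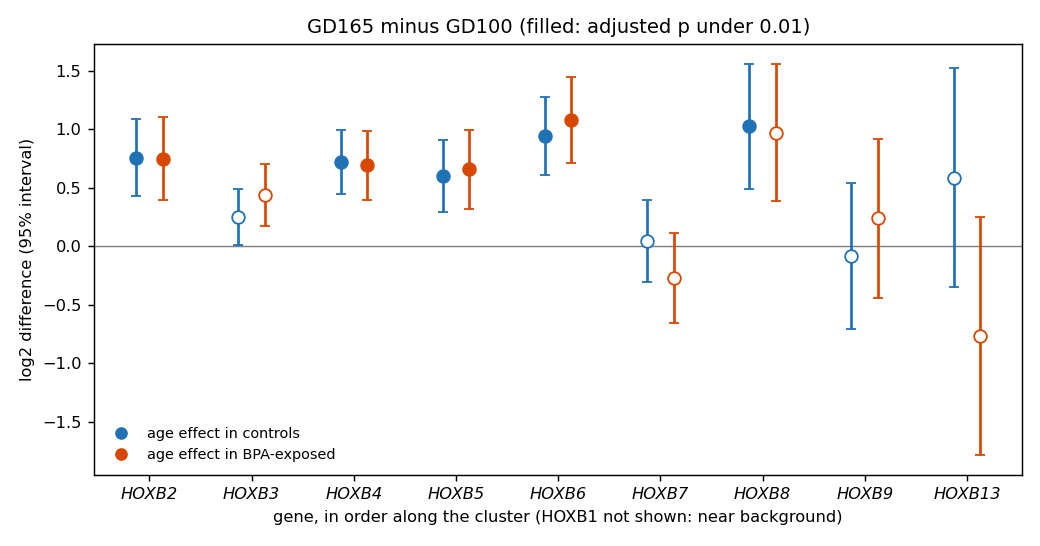
Difference between GD165 and GD100 (log2, vertical axis) for each measured HOXB gene in its order along the cluster, in controls and in BPA-exposed fetuses. Points are limma estimates, bars are 95% intervals, and filled points passed the adjusted p of 0.01. HOXB2, HOXB4, HOXB5, HOXB6 and HOXB8 lie between 0.60 and 1.08 in both series, and the HOXB7 and HOXB9 intervals include 0.

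The levels of the 2 ages did not overlap, with GD165 the higher, in 5 of 9 genes in controls, against 9.51% of all probes. In BPA-exposed fetuses this was so in 6 of 9 genes, the former 5 and HOXB3, against 11.7% of all probes. HOXB13 was the 1 gene without overlap in the other direction in BPA-exposed fetuses, where 15.4% of all probes were lower at GD165 without overlap.

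To ask whether neighbours along the cluster changed unequally, the log2 ratio of their signals on each array was compared between the ages for the 8 neighbouring pairs of measured genes. Scaling of the arrays cancels in such a ratio. An exact two-sided permutation test was used, with ages exchanged among controls and among exposed fetuses separately (7056 regroupings), and this test was chosen after values were seen. The ratio of HOXB6 to HOXB7 rose by 0.90 in controls and 1.35 in BPA-exposed fetuses (exact p = 0.000283, adjusted over the 8 pairs 0.0017). That of HOXB7 to HOXB8 fell by 0.98 and by 1.24 (exact p = 0.000425, adjusted 0.0017). HOXB7 thus differed in its change from the genes on both sides of it, slides being ignored. Ages were exchanged without regard to slide, and a slide effect particular to a probe does not cancel in a ratio. HOXB7 was lowest on the arrays of slide 5, at 13.25, 13.31, 13.46 and 13.52. Within slides, HOXB6, HOXB7 and HOXB8 differed between the ages by 0.38, 0.21 and 0.32 on slide 5 in controls. The values were 0.88, −0.0067 and 1.87 on slide 3 in controls and 1.15, 0.34 and 1.13 on slide 2 in exposed fetuses. The part of slide was not tested. For HOXB8 over HOXB9 the changes were 1.11 and 0.73 (exact p = 0.00439, adjusted 0.00699).

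HOXB3 too changed unequally to the genes beside it. The ratio of HOXB2 to HOXB3 changed by 0.51 in controls and 0.31 in exposed fetuses (exact p = 0.000709, adjusted 0.00189), and that of HOXB3 to HOXB4 by −0.47 and −0.26 (exact p = 0.00255, adjusted 0.0051). HOXB5 rose less than HOXB6, with changes in their ratio of −0.34 and −0.42 (exact p = 0.00524, adjusted 0.00699). For HOXB4 over HOXB5, at 0.12 and 0.034, no difference was found (exact p = 0.534, adjusted 0.611). HOXB9 over HOXB13 gave −0.67 and 1.01, values of opposite sign (exact permutation p = 0.663, adjusted over the 8 pairs 0.663). When each animal was left out in turn, HOXB2 over HOXB3, HOXB6 over HOXB7 and HOXB7 over HOXB8 stayed under 0.01, while HOXB3 over HOXB4, HOXB5 over HOXB6 and HOXB8 over HOXB9 did not in 4, 9 and 8 of 17 cases, with values of −0.42 to −0.29, −0.45 to −0.32 and 0.80 to 1.16.

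The calls of single genes at 0.01 changed with the fit. When the fit held no other groups, or took slide as a fixed block, HOXB6 alone passed in controls. In BPA-exposed fetuses HOXB4 and HOXB6 passed in the first of these fits and HOXB2 and HOXB6 in the second. Without scaling 1 gene, HOXB6, passed in controls. Leaving out GD165 control replicate 6 left HOXB4 and HOXB6 in controls. HOXB2, HOXB4 and HOXB6 were left there without any 1 of GD100 control replicates 1, 3 and 4, GD165 control replicates 3 and 5, GD100 BPA replicates 2, 3 and 4 and GD165 BPA replicate 4. In BPA-exposed fetuses HOXB6 was left without GD165 BPA replicate 3 or replicate 5, and HOXB4 and HOXB6 without GD100 BPA replicate 2, GD100 BPA replicate 3 or GD165 BPA replicate 4. The 5 rising genes kept their direction in all 211 values counted over both comparisons, and in 54 of them a gene no longer passed. Of the refits without 1 animal, this count holds mainly those that left out an animal of the compared groups. Further calls were lost without an animal of the other series, as in the cases above. All are refits of the arrays from which the genes were picked, so the shared direction is a description and not a test.

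Slides could be compared within themselves only in part. In controls, slides 3 and 5 each held 1 array of both ages, and the 5 rising genes were higher at GD165 by 0.14 to 1.87. In BPA-exposed fetuses slide 2 did so, and the 5 genes were higher by 0.51 to 1.15. Because the ages did not overlap in these 5 genes in either series, the direction of each value was fixed in advance. Only the sizes add to the levels above. HOXB7 differed by −0.0067, 0.21 and 0.34 on the same slides.

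The other HOX clusters were measured for comparison. Of the 28 measured HOXA, HOXC and HOXD genes, 0 passed as higher at GD165 in controls and 0 in BPA-exposed fetuses. Among all probes 6.32% and 4.82% did, so 0 calls in a list of this length carry little weight. Their median difference was −0.11 and −0.071. HOXA10, which acts in Müllerian patterning and endometrial receptivity, fell by 0.42 (adjusted p = 0.000862, limma) and HOXA9 fell by 0.42 (adjusted p = 0.00851, limma) in controls. In BPA-exposed fetuses they stood at −0.12 (adjusted p = 0.283, limma) and −0.17 (adjusted p = 0.296, limma). There HOXA13, the most posterior HOXA gene, fell by 2.72 (adjusted p = 0.00741, limma), with HOXD13 at −1.47 (adjusted p = 0.023, limma) and HOXB13 at −0.77.

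**Figure D3:**
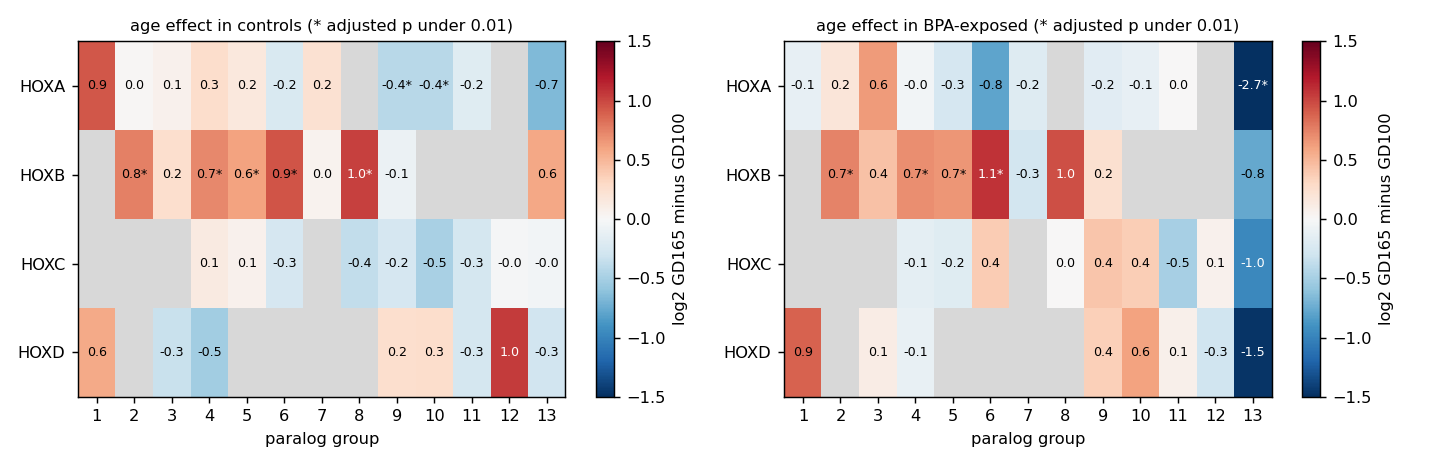
Difference between GD165 and GD100 (log2, color and number, colors saturating at 1.5) for the measured HOX genes by cluster (rows) and paralog group (columns), in controls and BPA-exposed fetuses. Stars mark an adjusted p under 0.01, and grey marks genes that do not exist, were not measured or, for HOXB1, lay near background. All stars on rises lie in the HOXB row. Passing as higher were 6.32% of all probes in controls and 4.82% in BPA-exposed fetuses.

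HOX proteins bind DNA together with TALE homeodomain cofactors of the PBX, MEIS and PKNOX families. In controls 0 of 9 measured cofactors rose and 3 fell, where 5.2% of all probes passed as lower. These were PBX4 at −1.05 (adjusted p = 0.000486, limma), PBX3 at −0.48 (adjusted p = 0.00333, limma) and MEIS1 at −0.55 (adjusted p = 0.00261, limma). In BPA-exposed fetuses, where 4.86% of all probes passed as lower, 1 fell, PBX4 at −0.99 (adjusted p = 0.00189, limma).

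Of 22 measured regulators of HOX genes (CDX factors, retinoic acid receptors and enzymes, Polycomb proteins, GMNN and CTCF), 1 rose and 2 fell in each comparison. Of all probes 6.32% rose and 5.2% fell in controls, and 4.82% rose and 4.86% fell in BPA-exposed fetuses. EZH2, the histone H3 lysine methyltransferase of Polycomb repressive complex in dividing cells, was lower at GD165 by 2.09-fold in controls (adjusted p = 3.32e-05, limma) and 1.85-fold in BPA-exposed fetuses (adjusted p = 0.000364, limma). EZH1, its paralog typical of non-dividing cells, was higher by 1.40-fold (adjusted p = 0.00245, limma) and 1.49-fold (adjusted p = 0.00167, limma). GMNN, an inhibitor of DNA replication licensing that also binds Polycomb and HOX proteins, fell by 0.46 (adjusted p = 0.00374, limma) and by 0.63 (adjusted p = 0.000982, limma).

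Of 9 measured chromosomal neighbours of the cluster, 0 passed as higher and 2 as lower in each comparison, beside the 5.2% and 4.86% of all probes that passed as lower. CBX1, a heterochromatin protein gene, was at −0.28 (adjusted p = 0.00992, limma) and −0.37 (adjusted p = 0.00349, limma). IGF2BP1, an oncofetal RNA-binding protein gene, was well above background on all 10 GD100 arrays and on 0 of the 7 GD165 arrays. Its level was therefore at least 2.35-fold lower at GD165 in controls (adjusted p = 1.86e-05, limma) and at least 3.26-fold lower in BPA-exposed fetuses (adjusted p = 3.55e-06, limma), taking for each GD165 array the lowest signal called well above background, or the probe's own where higher.

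Some markers of other cell types moved with age beside the HOXB genes. Passing as higher in controls and in BPA-exposed fetuses were 3 and 1 of 6 skeletal muscle markers, 1 and 1 of 6 leukocyte markers, 1 and 1 of 5 erythroid markers, 1 and 1 of 6 endothelium markers and 2 and 1 of 4 uterine epithelium markers. Of all probes 6.32% and 4.82% passed as higher, so 1 call in so short a list carries little weight. The log2 of their summed signals, in which the brightest genes weigh most, was compared between GD100 and GD165 controls. Its ranges were 11.36 to 11.85 and 12.73 to 16.94 for skeletal muscle (6 of 6 genes measured). Leukocytes (6 of 6) gave 13.66 to 14.57 and 14.48 to 15.16. The erythroid list (5 of 6), in which HBB alone passed as higher, gave 17.91 to 18.67 and 18.76 to 20.26. For endothelium (6 of 6) the ranges were 15.23 to 16.05 and 16.12 to 16.98, and for uterine epithelium (4 of 6) 15.48 to 16.39 and 16.62 to 17.24. Mean log2 levels per array of the endothelium list overlapped between the ages in controls, at 11.81 to 12.36 and 12.23 to 13.01. Those of uterine epithelium did so too, at 10.69 to 11.53 and 11.28 to 11.76. Means of the skeletal muscle, leukocyte and erythroid lists did not overlap. In BPA-exposed fetuses the corresponding ranges of the log2 of the sums, in the order above, were 11.53 to 12.88 and 12.54 to 15.64, 14.03 to 14.63 and 14.49 to 15.44, 18.75 to 19.31 and 18.29 to 19.73, 15.57 to 15.73 and 16.06 to 16.83, and 15.53 to 16.16 and 16.13 to 16.49. Smooth muscle and mesenchyme markers (12 of 12) overlapped, at 20.52 to 20.95 and 20.69 to 21.10 in controls, and ovary and kidney markers (6 of 6) at 11.76 to 12.04 and 11.90 to 12.18.

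Among single markers, ESR1, the estrogen receptor, rose by 0.73 (adjusted p = 0.00458, limma) and PAX8, a Müllerian epithelium factor, by 0.94 (adjusted p = 0.00232, limma) in controls. HBB rose by 6.46 (adjusted p = 3.97e-05, limma), LYZ by 1.99 (adjusted p = 9.96e-05, limma) and VWF by 1.30 (adjusted p = 0.00275, limma). KRT18, CNN1 and the skeletal muscle genes MYH2, ACTA1 and TNNT3 also rose there, by 0.85, 1.28, 4.35, 5.14 and 1.56, and FOXL2, an ovarian marker, fell by 0.80. In BPA-exposed fetuses ESR1, PAX8, HBB, LYZ, VWF and MYH2 rose by 0.95, 0.93, 4.67, 1.66, 1.37 and 4.09, and FOXL2 fell by 0.84. In the erythroid, uterine epithelium, endothelium, leukocyte, and smooth muscle and mesenchyme lists, markers that did not pass lay on both sides of 0. KDR, of the endothelium list, lay at −0.30 in both series (list medians 0.40 and 0.44). Of the leukocyte list, CSF1R lay at −0.014 in controls and CD3E at −0.30 in BPA-exposed fetuses (medians 0.78 and 0.64). LUM and DCN, of the mesenchyme list, lay at −0.39 and −0.58 in controls and at −0.61 and −0.46 in exposed fetuses (medians 0.20 and 0.19). The 4 erythroid markers other than HBB lay at −0.17 to 0.034 in controls and at −2.54 to 0.094 in BPA-exposed fetuses, and the medians of the 5 were −0.014 and −1.28. In BPA-exposed fetuses CDH1 and KRT8, of the uterine epithelium list, lay at −0.75 and −0.73, with a list median of −0.14. Defining markers at background were few. In the GD100 controls 2 of the skeletal muscle markers were on 0 arrays well above background, and among erythroid markers 1 was so in each group. The part of these cell types in the HOXB rises was not tested.

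BPA exposure was compared with vehicle at each age. No HOXB gene passed the test at GD100, at GD165 or for the difference of the BPA effect between the ages, and 0 (0%) of all probes passed in any of the 3 comparisons. At an unadjusted p of 0.05 in the fit to all 17 arrays, the counts over all probes were 767, 1740 and 1584. Among the 9 measured HOXB genes they were 0, 1 and 0. Medians of the 9 genes were −0.017 at GD100 and −0.019 at GD165, beside 0.011 and −0.025 over all probes. These comparisons share their samples with the age comparisons. The study's error-weighted analysis of variance, not repeated here, did report differences with BPA, which it called minimal at GD100 and significant at GD165.

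At GD100 the 5 genes that rose with age had BPA effects between −0.15 and 0.12, which were 0.12 for HOXB2 (95% interval −0.19 to 0.43), −0.017 for HOXB4 (−0.27 to 0.24), −0.077 for HOXB5 (−0.37 to 0.21), −0.13 for HOXB6 (−0.45 to 0.19) and −0.15 for HOXB8 (−0.66 to 0.35). HOXB7 was at 0.15 (−0.18 to 0.48) and HOXB9 at −0.27 (−0.86 to 0.32). HOXB13 gave the highest value, 0.49 (−0.39 to 1.37), with a spread that took in GD165 control replicate 6. Without that animal the same 0.49 had an unadjusted p of 0.0056 (adjusted p = 0.9999, limma). With slide as a fixed block the HOXB13 difference was 0.030. The groups overlapped in each of the 9 genes. In the fold scale, the interval for HOXB4 ran from 0.827 to 1.18.

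At GD165 the effects were 0.11 for HOXB2 (95% interval −0.26 to 0.49), −0.047 for HOXB4 (−0.36 to 0.26), −0.019 for HOXB5 (−0.37 to 0.33), 0.0058 for HOXB6 (−0.38 to 0.39) and −0.21 for HOXB8 (−0.82 to 0.40). HOXB7 was at −0.17 (−0.57 to 0.23) and HOXB9 at 0.057 (−0.65 to 0.77). With 3 and 4 animals the intervals leave effects of these sizes possible.

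HOXB3 was the gene with an unadjusted p under 0.05 at GD165. The controls were at 8.55, 8.53, 8.67 and 8.62 and the BPA-exposed fetuses at 8.96, 8.94 and 8.72. All exposed values were above all control values, as in 2.07% of all probes. The difference was 0.28 (95% interval 0.0050 to 0.56), with an adjusted p of 0.579 in limma's test, and it was 0.40 within slide 5, which held 2 exposed and 1 control array.

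HOXB13 differed by −0.86 between BPA-exposed and control fetuses at GD165 (95% interval −1.93 to 0.20; adjusted p = 0.657, limma), and the value rested on GD165 control replicate 6. The difference between the BPA effects at the 2 ages was −1.35 for HOXB13 (−2.74 to 0.030; adjusted p = 0.637, limma) and −0.67 (adjusted p = 0.692, limma) without that animal. For the other 8 measured genes this difference lay between −0.32 for HOXB7 and 0.32 for HOXB9.

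Within slides the BPA effects took both signs. On slides 1, 2 and 3, which held both GD100 groups, the 5 genes that rose with age gave 15 values from −0.62 to 0.74, of which 9 were positive. On slide 5 their 5 values at GD165 ran from −0.25 to 0.32.

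**Figure D4:**
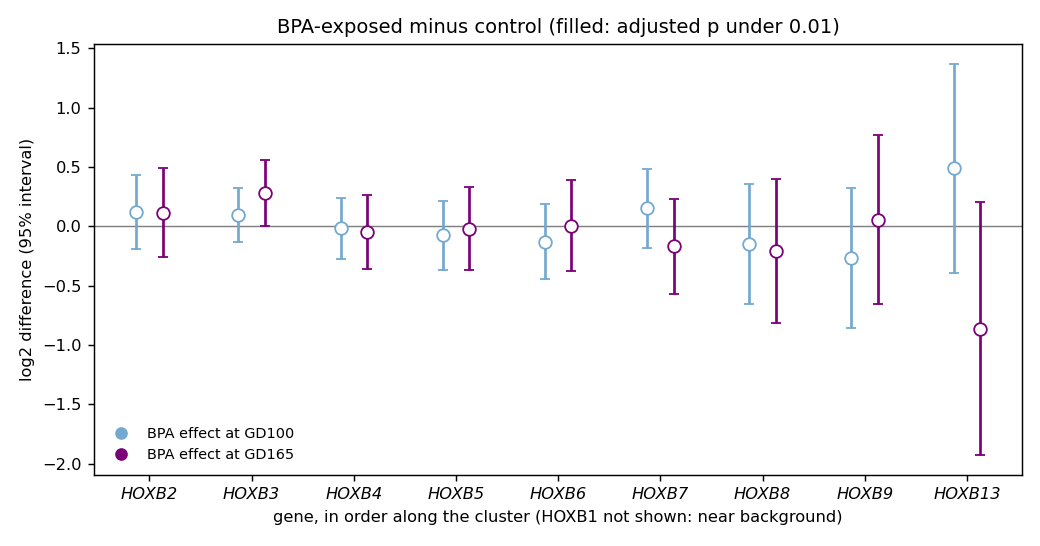
Difference between BPA-exposed and control fetuses (log2, vertical axis) for each measured HOXB gene in its order along the cluster, at GD100 and GD165. Points are limma estimates and bars are 95% intervals. No point is filled, since none passed the adjusted p of 0.01, and HOXB13 has the widest intervals.

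Levels of the HOXB genes were then compared across the 17 arrays, as a description without a test, since the arrays share the 4 groups. Over all arrays Pearson's r was 0.96 between HOXB4 and HOXB6, 0.93 between HOXB2 and HOXB6, 0.91 between HOXB2 and HOXB4, 0.89 between HOXB6 and HOXB8 and 0.89 between HOXB5 and HOXB6. HOXB7 had r of −0.15 with HOXB6 and −0.17 with HOXB8. The median over the 36 pairs was 0.30.

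After removal of the group means, r was 0.80 between HOXB4 and HOXB6, 0.76 between HOXB2 and HOXB6 and 0.67 between HOXB2 and HOXB4. It was 0.61 between HOXB6 and HOXB8, 0.17 between HOXB6 and HOXB7 and −0.0015 between HOXB7 and HOXB8. HOXB5 gave 0.52 with HOXB8, 0.50 with HOXB6, 0.37 with HOXB4 and 0.18 with HOXB2. HOXB8 gave 0.51 with HOXB4 and 0.15 with HOXB2. With the genes that rose with age, HOXB9 had r of 0.28 to 0.54 and HOXB13 of 0.13 to 0.58. The r over all arrays thus holds the age difference by which the rising genes were picked. Of the 36 pairs 33 had r above 0, and the median was 0.39 for the 8 pairs of neighbours and 0.39 for the others. A part of any such r is the array's own scaling and RNA, which all genes of an array share.

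**Figure D5:**
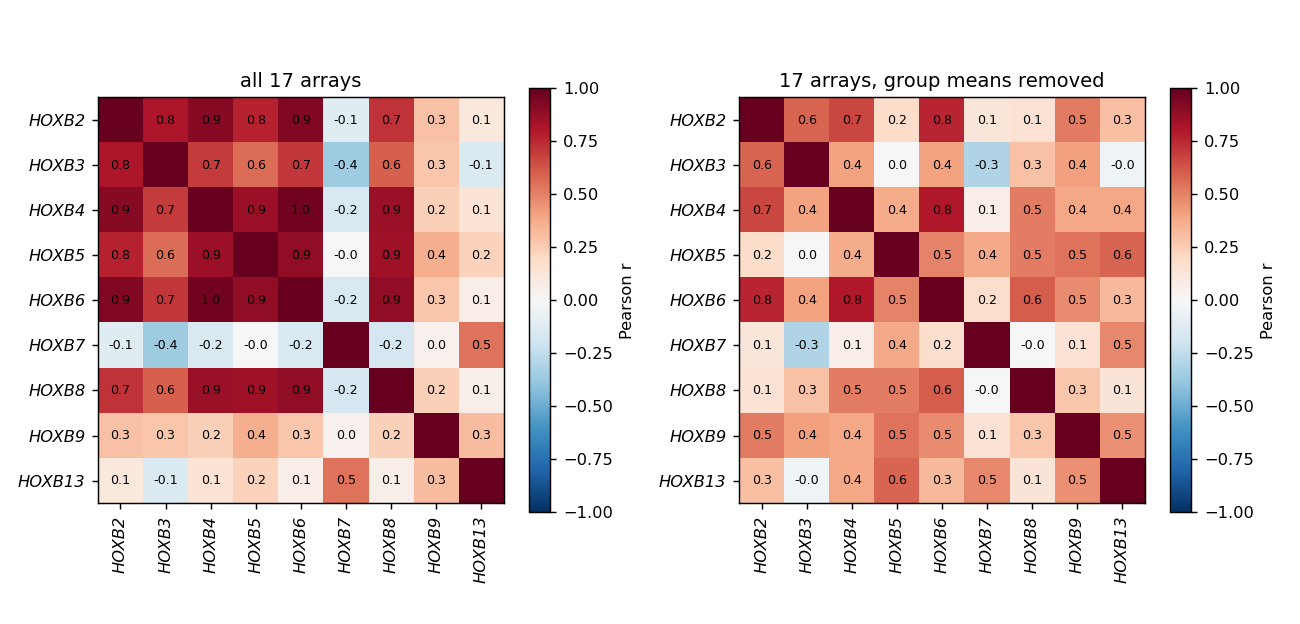
Pearson's r between the levels of the 9 measured HOXB genes over the 17 arrays, as measured (left) and after removal of the 4 group means (right). Color and number give r. HOXB2, HOXB4, HOXB5, HOXB6 and HOXB8 form a block of r from 0.72 to 0.96 on the left that HOXB7, HOXB9 and HOXB13 do not join. On the right, r among the genes of this block runs from 0.15 to 0.80.

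Among 16320 other named genes, those with the highest r over the 17 arrays were HOXB6 (0.96), PTPN6 and RAD51L1 (0.95 each) for HOXB4, and CGI-38 (0.97), HOXB4 (0.96) and TRIM14 (0.96) for HOXB6. HOXB4 and HOXB6 were thus each among the 3 genes most like the other. For HOXB2 they were ABCG2 (0.95), TSPAN8 (0.95) and TNIK (0.93), for HOXB5 MAP7, DUSP23 and SCAP2 (0.92 each), and for HOXB8 CNKSR1 (0.95), GJB1 (0.95) and CABC1 (0.93). No HOX gene was in these lists for HOXB2, HOXB5 or HOXB8.

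HOXB7 was most like DHPS (0.96), EDAR (0.96) and RAB3A (0.95), and HOXB3 most like SOX5 (0.87), IFIH1 (0.83) and CACNG6 (0.83). HOXB9 reached no higher r than 0.77, with MGC21644 and ADAMTS6, and 0.76 with STAT4. For HOXB13 the genes were SPINK5 (0.93), SPRR3 (0.92) and TRIM43 (0.91), and without GD165 control replicate 6 these values were 0.65, 0.64 and 0.61.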

How the data were processed

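The authors deposited, per the labels, the signals of Agilent Feature Extraction 9.5 at its 1-color defaults, as linear intensity after background subtraction, without scaling between arrays; the file headers name the build rheMac2, but whether the probe positions are in that build could not be settled. The authors' table of all arrays was identical to these signals in 711467 of 711467 values. Here, control spots and outlier spots were left out, the 2 spots of a probe averaged on the log2 scale, and each array's 75th percentile subtracted and the mean percentile, 12.62, added back. The share of spots well above background was 83.8 to 89.0% per array, and the number of arrays limits the precision. Pearson's r between arrays was 0.974 to 0.995, and 0 of 136 pairs were identical. Gene names came from the array's descriptions and reference tables.

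limma 3.58.1 (R 4.3.3) used the 4 groups as its only terms and all 17 arrays. Tests were two-sided at an adjusted p of 0.01. The error-weighted analysis of variance in the study's methods was not repeated. The fit was tested on simulated data. Exact permutation tests and correlations used Python 3.11.15 and scipy 1.17.1. Replicates were single animals, and p values measure the spread between them. Named were all HOXB genes, up to 5 genes per other list and comparison past 0.01, and the 3 genes most like each HOXB gene. The members, gene lists and tests were chosen with earlier results of these data known. Alternatives were other background correction, scaling, filter, fits, blocks and thresholds, the mean over probes, and leaving out each animal.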

Additional observations from a re-analysis of the deposited data

Results flagged for a closer look

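Among 30 sets of levels of 1 HOXB gene in 1 group of 4 or 5 animals, 4 had a value far from the others by Dixon's criterion, where chance marks about 1 set in 20. HOXB13 in GD165 control replicate 6 was at 8.45, and the next highest GD165 control was at 5.88. In GD100 control replicate 2 both HOXB9, at 11.43 with the next at 10.32, and HOXB13, at 6.17 with the next at 5.78, stood above the other early controls. HOXB1 in GD165 control replicate 1 was at 2.43 with the next at 3.08, and neither level was well above background.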

How the results depend on the processing

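In controls, the number of HOXB genes called, 5, fell to 1 without scaling, with the compared groups only, with slide as a fixed block and with the replicate block, and was 2 to 5 when an animal was left out. The number of all probes called, 2328, was 1531, 1172, 1233 and 958 in the same settings, 4279 at a threshold of 0.05, 4531 for the mean of both age effects, and 1512 to 2370 without 1 animal. In BPA-exposed fetuses 4 genes became 2 with the compared groups only, with slide as a fixed block and with the replicate block, and 1 to 5 without 1 animal; probes, 1956, became 1176 and 512 in the first 2 of these, 4255 at 0.05 and 994 to 2131 without 1 animal. For BPA at GD100, 1 probe passed with the compared groups only, and 0 to 1 passed without 1 animal at GD100, at GD165 and for the difference between ages. The numbers do not pair the animals: deviations of same-numbered animals correlated at −0.10 to 0.040 between ages in controls, 0.00074 to 0.085 in exposed fetuses, −0.17 to 0.071 for BPA at GD100 and 0.027 to 0.12 at GD165. The cause of these losses was not tested. The median r between HOXB genes was 0.30 and, centred on group means, 0.39.

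Values that changed sign were all of genes that did not pass. Age in controls gave, for HOXB7, −0.0030 (median scaling), −0.020 (replicate block) and −0.11 (mean of both age effects), for HOXB13 −0.053 (replicate block) and −0.091 (mean of both), and for HOXB9 0.076 (mean of both); without 1 animal HOXB7 ran from −0.054 to 0.13, HOXB9 from −0.25 to 0.19 and HOXB13 from −0.10 to 0.89. In exposed fetuses HOXB7 was 0.10 with slide as a fixed block. For BPA at GD100, HOXB2 was −0.057 with slide as a fixed block, and without 1 animal HOXB4 ran from −0.11 to 0.036 and HOXB9 from −0.38 to 0.0060. For BPA at GD165, HOXB5 was 0.0086 (median scaling), 0.14 (no scaling), 0.11 (fixed slide block), 0.0032 (random slide block) and 0.12 (replicate block), HOXB4 0.11 (no scaling) and 0.095 (replicate block), and HOXB6 −0.016 (fixed slide block), −0.0065 (random slide block) and −0.014 (mean over probes). Without 1 animal the ranges there were −0.11 to 0.038 for HOXB4, −0.13 to 0.092 for HOXB5, −0.13 to 0.10 for HOXB6, −0.42 to 0.0072 for HOXB7, −0.36 to 0.044 for HOXB8 and −0.17 to 0.23 for HOXB9. For the difference of the BPA effects, HOXB2 was 0.0078 (normexp), 0.053 (median scaling), 0.19 (no scaling), 0.21 (fixed slide block), 0.034 (random slide block) and 0.016 (replicate block), HOXB4 0.028 (median scaling), 0.17 (no scaling) and 0.11 (replicate block), and HOXB8 0.0036 (median scaling) and 0.14 (no scaling), with ranges without 1 animal of −0.088 to 0.080 for HOXB2, −0.097 to 0.061 for HOXB4, −0.050 to 0.17 for HOXB5 and −0.21 to 0.20 for HOXB8. The ratio of HOXB9 to HOXB13 ran from −0.016 to 0.43 without 1 animal.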
